A study of Mus musculus with 2 samples.

Results

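The genes described here carry out or control vitamin D-dependent calcium absorption in the gut. They were picked by symbol, as the calcium entry channel Trpv6, the calcium-binding protein S100g, the calcium pump Atp2b1, the vitamin D receptor Vdr, its partner Rxra, the vitamin D-degrading enzyme Cyp24a1 and the metal exporter Slc30a10. Of these 7 genes, 6 were matched among the 27275 genes measured, and Cyp24a1 was not analysed here. RNA came from small intestine of naive mice of 2 genotypes, with 1 library each. The knockout (KO) library was labelled Spibfl/flVillin-Cre, in which Cre recombinase driven by the villin promoter removes the floxed Spib gene from intestinal epithelium and leaves it in immune and stromal cells. The wild-type (WT) library was labelled Spib+Villin-Cre, so the label of both libraries names Villin-Cre. Spib encodes an ETS family transcription factor needed by epithelial M cells. The sources used here give neither age nor sex, nor whether mice were pooled.

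Dietary calcium crosses enterocytes in steps. It enters through apical channels such as TRPV6, is carried through the cytosol by calbindin-D9k, the product of S100g, and is pumped into the blood by the plasma membrane ATPase encoded by Atp2b1. Active vitamin D binds VDR, which pairs with RXRA on DNA and raises transcription of these genes, and the route is best known from the duodenum. In whole tissue, a change in the number of cells of a type cannot be told apart from a change in the RNA of each cell.

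The promoters of S100g and Trpv6 are shown first, because these are the classical vitamin D-induced genes of calcium entry and carriage, and their RNA levels lay far apart in both libraries. Each window is from RefSeq on GRCm38.p6, reads 5′ to 3′ on the strand of the gene, and runs from 250 bases before the annotated start to 50 bases after it. S100g is on the minus strand (chrX:162964550-162964849), and so is Trpv6 (chr6:41636356-41636655). Capitals mark every match, on either strand, to AGGTCA, the hexamer bound by VDR and related nuclear receptors, to GAGGAA, a core bound by SPI-B and other ETS factors, and to TATAAA, the TATA box.
S100g: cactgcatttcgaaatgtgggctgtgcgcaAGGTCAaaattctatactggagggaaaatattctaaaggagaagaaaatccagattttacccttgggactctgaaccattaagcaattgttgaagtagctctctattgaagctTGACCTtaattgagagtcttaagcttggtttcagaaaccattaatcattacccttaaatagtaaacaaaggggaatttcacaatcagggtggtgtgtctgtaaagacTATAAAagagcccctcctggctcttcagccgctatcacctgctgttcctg
Trpv6: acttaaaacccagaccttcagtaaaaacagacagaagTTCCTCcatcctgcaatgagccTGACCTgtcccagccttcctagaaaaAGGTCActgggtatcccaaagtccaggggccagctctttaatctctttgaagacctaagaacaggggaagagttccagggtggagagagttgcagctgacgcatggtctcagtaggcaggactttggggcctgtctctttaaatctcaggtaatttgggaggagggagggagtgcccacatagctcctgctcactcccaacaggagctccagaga

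The hexamer AGGTCA occurred on both strands of the S100g window, 220 bases before the annotated start in the sense direction and 107 bases before it, written TGACCT, in the antisense direction. The Trpv6 window also held it on both strands, at 165 and 191 bases before the start. The same hexamer was present in 16.3% of 32851 promoter windows of this length. TATAAA lay at the annotated start in S100g and was present in 13.6% of all windows. GAGGAA, found in 28.3% of all windows, had a match in the Trpv6 window, written TTCCTC, and none in the S100g window. An exact form of the vitamin D element, AGGTCA in direct repeat around a spacer NNN, had no match in the windows of the 6 measured genes. This form occurred in only 2 of all 32851 windows, so its absence from these few says little about them. Looser forms of the element were not searched. These matches describe letters and not bound sites, and vitamin D elements of these genes can lie outside such a window.

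S100g was the only one of these genes past 2-fold, and it was higher in the KO library. FPKM values, which are reads per kilobase of transcript, scaled to the size of the library, are given for each library. S100g (ENSMUSG00000040808, minus strand of chromosome X, 162961992 to 162964599, mm10) had 48.5 FPKM from 411 reads in the KO library, against 11.6 FPKM from 97 reads in the WT library. That is 4.18-fold higher in the KO library, with an exact 95% interval of 3.34 to 5.27 that covers counting error only. The log2 ratio, log2((KO FPKM + 1) / (WT FPKM + 1)), was 1.97 and ranked 39 from the highest among the 13479 genes with at least 1 FPKM in at least 1 library. S100g ranked 1027 by level in the KO library and 4181 in the WT library. No replicate exists for either genotype, so no test was made and the difference is one between these libraries.

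**Figure D1:**
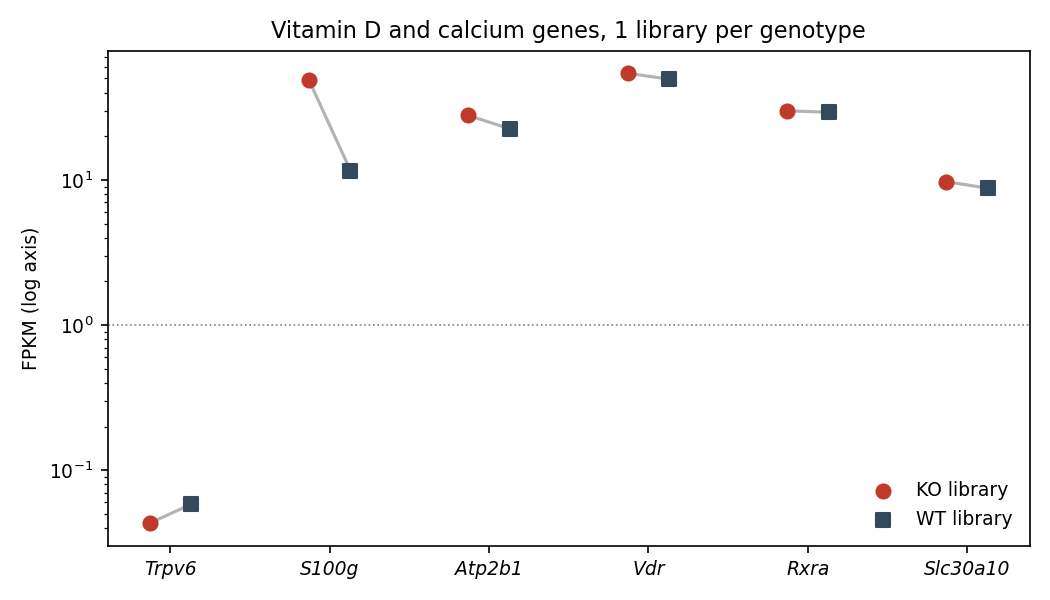
FPKM on a log axis for the 6 measured genes, with a circle for the KO library and a square for the WT library (1 library each) and a dotted line at 1 FPKM. S100g stands at 48.5 in the KO library and 11.6 in the WT library, the other pairs lie close together, and Trpv6 is below 0.1 in both.

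Of the 5 genes that reached 1 FPKM, 1 was at least 2-fold higher in the KO library, where 1.61% of all compared genes were, and 0 were at least 2-fold lower, where 2.51% were. The same counts held at 1.5-fold, which, like every count past a fold here, is taken on the log2(FPKM + 1) scale and which 3.56% of compared genes passed upward and 5.69% downward. All 5 log2 ratios were above 0, as were those of 5569 of the 13479 compared genes. Their median was 0.14, against -0.05 over all compared genes. The lowest of the 5 was that of Rxra, at 0.03, with a counting interval of the fold that spans 1. Since the genes were picked as a group with earlier results of these data known, the count is a description.

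**Figure D2:**
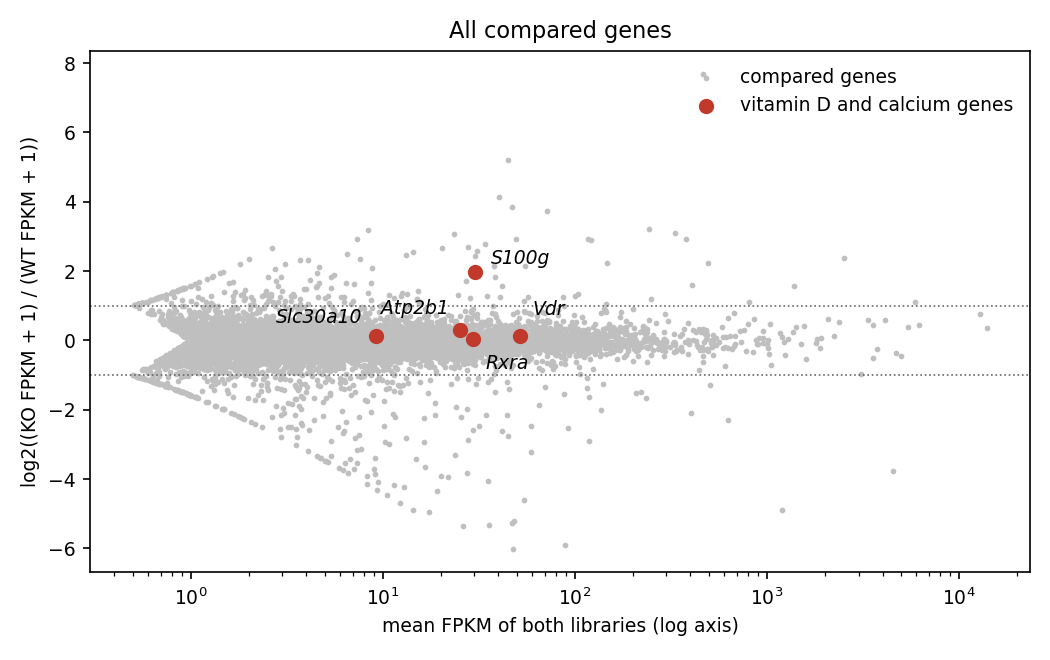
Log2 ratio of KO over WT against mean FPKM (log axis) for the 13479 compared genes, with the 5 vitamin D and calcium genes above the filter in red and dotted lines at 2-fold. S100g, at 1.97, lies above the main cloud, and Vdr, Rxra, Atp2b1 and Slc30a10 lie inside it.

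The entry channel was close to absent. Trpv6 (ENSMUSG00000029868, minus strand of chromosome 6, 41620624 to 41636405) was listed at 0.0432 FPKM from 3 reads in the KO library, against 0.0583 FPKM from 4 reads in the WT library. The floor of 3 reads corresponds to 0.0432 FPKM in the KO library and 0.0437 FPKM in the WT library for a gene of this length. The ratio of 0.740 had a counting interval of 0.108 to 4.37, so a difference was not detectable at this depth. Trpv5, the related channel of the kidney, was at 0 in both libraries.

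The pump was measured far more deeply. Atp2b1 (ENSMUSG00000019943, plus strand of chromosome 10, 98914406 to 99026143) had 27.8 FPKM from 7465 reads in the KO library, against 22.5 FPKM from 5968 reads in the WT library. The fold was 1.23 (counting interval 1.19 to 1.28), and the log2 ratio was 0.29. The values differ by more than the counting error of this interval, which treats reads as independent, and by far less than 2-fold. The spread between mice is unknown. Atp2b1 was the most abundant of the plasma membrane calcium ATPases. Its FPKM was 4.34 times that of Atp2b4 in the KO library and 3.20 times in the WT library, while Atp2b2 and Atp2b3 were below 1 FPKM in both. S100g stood at 1.75 times the FPKM of Atp2b1 in the KO library and at 0.515 times in the WT library.

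The receptor pair lay close to equal in the libraries. Vdr (ENSMUSG00000022479, minus strand of chromosome 15, 97854425 to 97910630) was listed at 54.3 FPKM from 5417 reads in the KO library, against 49.4 FPKM from 4862 reads in the WT library. Its fold was 1.10, with a counting interval of 1.06 to 1.14. Rxra (ENSMUSG00000015846, plus strand of chromosome 2, 27676440 to 27762957) had 29.9 FPKM from 2884 reads in the KO library, against 29.3 FPKM from 2787 reads in the WT library. The Rxra fold was 1.02, with an interval of 0.969 to 1.08 that spans 1. Vdr was the most abundant of the 6 genes in both libraries. Rxra exceeded its paralogue Rxrb by 2.60 times in FPKM in the KO library and 2.47 times in the WT library, and Rxrg was below 1 FPKM in both.

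Slc30a10 encodes a manganese exporter of the plasma membrane that vitamin D induces in intestine. The gene (ENSMUSG00000026614, plus strand of chromosome 1, 185454848 to 185468762) had 9.72 FPKM from 1002 reads in the KO library, against 8.76 FPKM from 891 reads in the WT library. Its fold was 1.11, with a counting interval of 1.01 to 1.22. Of its 5836 exon bases, 533 are shared with the antisense gene Gm2061, whose reads cannot be told apart without strand. Gm2061 had 4.43 FPKM in the KO library, against 3.43 FPKM in the WT library.

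**Figure D3:**
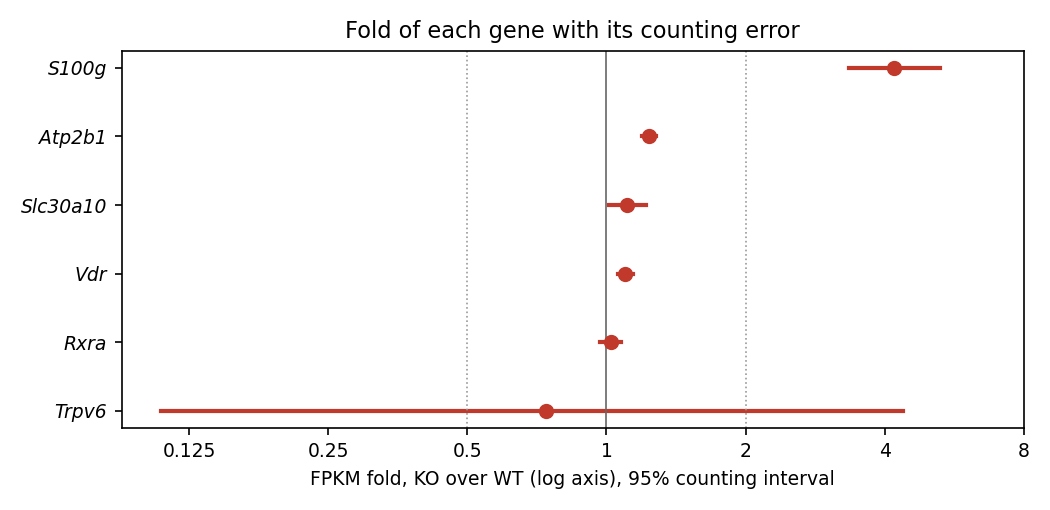
FPKM fold of KO over WT for each gene (point) with its exact 95% counting interval (line) on a log axis, and dotted lines at 2-fold in either direction. The S100g interval, 3.34 to 5.27, lies above the 2-fold line, the Trpv6 interval runs from 0.108 to 4.37, and the other 4 lie between 0.969 and 1.28.

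By level, the order in the KO library was Vdr, S100g, Rxra, Atp2b1, Slc30a10 and Trpv6. In the WT library it was Vdr, Rxra, Atp2b1, S100g, Slc30a10 and Trpv6, so the relative order of the other 5 genes was the same in both. Rxra and Atp2b1 differed little in the KO library, at 29.9 and 27.8 FPKM, and without replicates the order of such neighbours is uncertain.

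S100g lies within the span of Ctps2, a CTP synthase gene on the opposite strand, and shares 0 exon bases with it. Ctps2 had 3.24 FPKM in the KO library, against 2.94 FPKM in the WT library. Within 500 kb on either side of S100g, 6 other genes were compared. On the log2(FPKM + 1) scale 0 of them passed 1.5-fold, where 3.56% of all compared genes did upward and 5.69% downward. The log2 ratios of these 6 ran from -0.11 to 0.54. The highest was that of Reps2, an EH domain protein of endocytosis, with 7.37 FPKM in the KO library and 4.77 FPKM in the WT library, a plain FPKM fold of 1.55 (1.40 to 1.70).

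The same S100g values were also set against epithelial genes, which is a rescaling and not a second measurement. Per 1000 FPKM of villin (Vil1), the structural protein of microvilli, S100g had 56.7 FPKM in the KO library and 12.5 FPKM in the WT library, a 4.51-fold difference. The 14 enterocyte genes had a median log2 ratio of -0.08, with 0 past 1.5-fold in either direction, and summed to 14551 FPKM in the KO library and 16723 FPKM in the WT library. Their most abundant gene, the fatty acid-binding protein Fabp2, had 4103 FPKM in the KO library, against 5325 FPKM in the WT library. Relative to the sum of these 14 genes, S100g was 4.81-fold higher in the KO library. That sum is weighted to a few abundant genes and does not show a general drop. Apoa1 had 3436 FPKM in the KO library and 4070 in the WT library, and Anpep had 1307 and 1888. Sis went the other way, with 1203 and 868 FPKM. Of the 14 log2 ratios, 5 were above 0 and 9 below. Of all 13479 compared genes, 12232 also stayed within 1.5-fold.

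The design text calls the tissue proximal, and the regional markers were mixed. Fabp6, the bile acid-binding protein of ileal enterocytes, had 1735 FPKM in the KO library, against 2030.2 FPKM in the WT library. The ileal bile acid carrier Slc10a2 had 92.1 FPKM in the KO library and 92.6 FPKM in the WT library. Pdx1, a transcription factor of duodenum, had 1 read in the KO library and 4 in the WT library, while Gata4, a factor of duodenum and jejunum, had 17.2 and 15.7 FPKM in the KO and WT libraries. Ileal genes were abundant in both libraries, and the tissue is called small intestine here.

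The 8 compared genes of the proximal list had a median log2 ratio of 0.10, with 1 past 1.5-fold upward and 1 downward. Fabp1, the liver-type fatty acid-binding protein, had 764 FPKM in the KO library, against 486 FPKM in the WT library. The iron exporter Slc40a1 was 2.57-fold lower in the KO library (2.32 to 2.84), at 3.41 FPKM against 8.75 FPKM in the WT library. The 6 compared genes of the distal list had a median of -0.16. Among them carbonic anhydrase Car1 was 18.2-fold higher in the KO library (11.5 to 30.6), with 15.9 FPKM against 0.874 FPKM in the WT library, and the gut hormone gene Pyy had 13.4 FPKM in the KO library, against 23.4 FPKM in the WT library. The summed FPKM of the proximal list was 1097 in the KO library and 791 in the WT library, and that of the distal list 1903 in the KO library and 2200.2 in the WT library. Most of both gaps lay in 1 gene each. Without Fabp1 the proximal list summed to 334 FPKM in the KO library and 305 FPKM in the WT library, and without Fabp6 the distal list summed to 168 FPKM in the KO library and 170.03 FPKM in the WT library. S100g is known to decline along the length of the intestine, and the part of region in its difference was not tested.

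**Figure D4:**
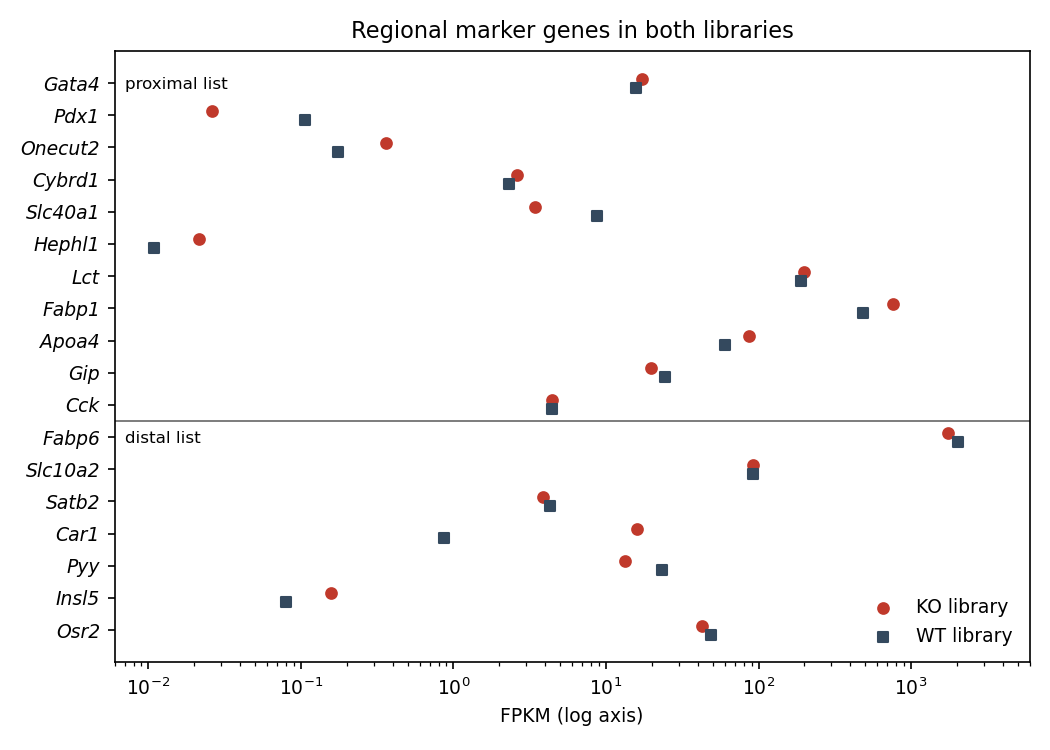
FPKM (log axis) of the measured genes of the proximal list, above the line, and of the distal list, below it, with circles for the KO library and squares for the WT library. Fabp6, the ileal marker, is the most abundant of them in both libraries, while the duodenal factor Pdx1 is near 0.1 FPKM or below, and Car1 and Slc40a1 show wide gaps in opposite directions.

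The rest of the calcium route showed no compared gene past 1.5-fold besides S100g. Most genes stayed within that line, 12232 of all 13479 compared, so this says little about the route in particular. Of the 23 genes of transcellular calcium transport, 15 were compared, 1 was at least 1.5-fold higher in the KO library, 0 were lower and 14 lay between. Their median log2 ratio was 0.00, or -0.01 without S100g, against -0.05 over all compared genes. The most abundant was Myo1a, the brush border myosin that binds calmodulin, with 500.9 FPKM in the KO library and 528 FPKM in the WT library. S100a10, a partner that carries TRPV channels to the membrane, had 320.5 FPKM in the KO library, against 337 FPKM in the WT library. Calb1, the larger calbindin of kidney, had 1 read in the KO library and 2 in the WT library. Calm2, a calmodulin gene, came closest to 1.5-fold, with 456 FPKM in the KO library and 319 FPKM in the WT library.

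Calcium also passes between cells through claudin pores. None of the 3 claudins tied to this path reached 1.5-fold, nor did 12232 of all 13479 compared genes. Cldn15 had 199.8 FPKM in the KO library, against 193 FPKM in the WT library, and Cldn2, a claudin that vitamin D induces, had 44.4 FPKM in the KO library, against 55.4 FPKM in the WT library.

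The wider group of 11 genes known to respond to vitamin D in intestine did not move together. Of the 8 compared, S100g was at least 1.5-fold higher in the KO library, Slc34a2 was at least 1.5-fold lower and 6 lay between, and the median was 0.13 both with and without S100g. Slc34a2, the sodium-phosphate carrier of the brush border, had 47.2 FPKM from 4180 reads in the KO library, against 82.4 FPKM from 7195 reads in the WT library. That is 1.74-fold lower in the KO library, by counting error 1.68 to 1.81. Cyp3a11, a cytochrome that can also inactivate vitamin D, had 28.4 FPKM in the KO library, against 19.8 FPKM in the WT library, at a fold of 1.44 and a log2 ratio of 0.50. It belongs to a family of close copies whose reads can be shared.

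Phosphate carriers went both ways. Slc20a1, a widely expressed sodium-phosphate carrier, was 1.97-fold higher in the KO library (1.76 to 2.21), with 9.50 FPKM against 4.82 FPKM in the WT library. The 6 genes of this list, of which 5 were compared, summed to 68.1 FPKM in the KO library and 98.8 FPKM in the WT library, since Slc34a2 was the most abundant.

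Genes that make, break down or carry vitamin D were few. Of the 8 measured, 4 were compared and 0 passed 1.5-fold, and 12232 of all 13479 compared genes did not pass it either. Cyp27b1, which makes the active hormone, had 4 reads in the KO library and 9 in the WT library, and the vitamin D-binding protein Gc was at 0 in both. Cyp27a1, a sterol hydroxylase that can make the precursor, had 32.0 FPKM in the KO library and 30.3 FPKM in the WT library. Cubn, the endocytic receptor for vitamin B12 in the ileum and for vitamin D carrier in the kidney, had 79.3 FPKM in the KO library, against 71.1 FPKM in the WT library.

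Receptor partners and other metal carriers had no compared gene past 1.5-fold, a line that 12232 of all 13479 compared genes also stayed within. The 10 compared genes of the receptor list had a median of -0.05 with 0 past 1.5-fold, and its most abundant gene Pdia3, a disulfide isomerase also described as a membrane vitamin D binder, had 202 FPKM in the KO library and 209 FPKM in the WT library. Of 11 compared receptors that share RXR, such as the bile acid receptor Nr1h4 with 43.1 FPKM in the KO library and 53.9 FPKM in the WT library, 0 passed 1.5-fold, and the median was -0.11. The 8 compared SLC30 exporters had a median of 0.16, and their most abundant gene Slc30a4 had 31.4 FPKM in the KO library, against 24.7 FPKM in the WT library. The 11 compared SLC39 importers had a median of -0.09, and 0 genes of either family passed 1.5-fold. Slc39a4, the zinc importer of enterocytes, had 99.3 FPKM in the KO library and 106 FPKM in the WT library. Among 9 hormones and sensors of calcium balance, 7 were below 1 FPKM in both libraries. The secreted hormone Stc2 had 0.963 FPKM in the KO library, against 1.97 FPKM in the WT library, 2.05-fold lower in plain FPKM (1.58 to 2.68) and past 1.5-fold on the log2 scale.

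**Figure D5:**
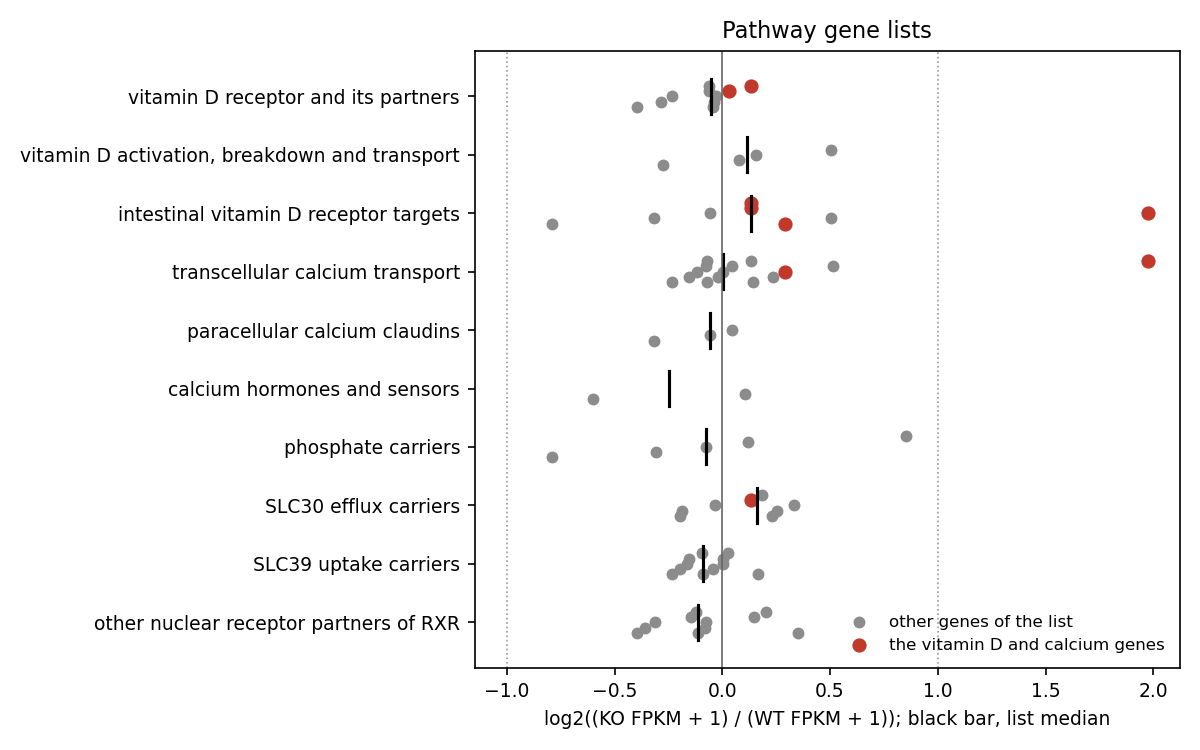
Log2 ratio of KO over WT for the compared genes of 10 pathway lists, with the vitamin D and calcium genes in red, the others in grey, a black bar at each list median and dotted lines at 2-fold. S100g, which stands in 2 lists, is the one point beyond 2-fold, Slc20a1 is the next highest, and Slc34a2 is the lowest.

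The libraries had implied depths of 17658566 reads (KO) and 17425640 reads (WT). Spib had 0.592 FPKM in the KO library, against 4.94 FPKM in the WT library, which goes with the labels. Over all compared genes, 5.69% were at least 1.5-fold lower in the KO library and 3.56% at least 1.5-fold higher. Of the 9 lymphocyte genes, 7 were at least 1.5-fold lower in the KO library, 0 were higher and 0 were at 0 reads. They summed to 73.1 FPKM in the KO library and 215 FPKM in the WT library, and the joining chain of antibodies, Jchain, had 57.8 FPKM in the KO library, against 180.5 FPKM in the WT library. Among these 9 were the B cell genes Cd79a, at 3.54 FPKM in the KO library against 9.10 FPKM in the WT library, and Cd79b, at 2.65 against 7.38 FPKM. The T cell genes Cd8a, at 1.53 against 3.53 FPKM, and Cd3g, at 0.832 against 2.02 FPKM, were lower in the KO library too. Crypt, smooth muscle and stromal lists had medians of -0.09, 0.19 and 0.01, with 0 genes past 1.5-fold. Olfm4, Acta2 and Col3a1, their most abundant genes, had 370.5, 208 and 48.3 FPKM in the KO library, against 336, 210.2 and 44.3 FPKM in the WT library. Pancreatic acinar genes summed to 8.51 FPKM in the KO library and 13.1 FPKM in the WT library, and 2 of the 5 compared were at least 1.5-fold lower, Ctrb1 with 1.29 against 3.66 FPKM and Cpa1 with 0.194 against 1.05 FPKM in the WT library, while Cela1 had 4.67 against 4.32 FPKM. The part of these cell types in the S100g difference was not tested.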

How the data were processed

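RNA of small intestine was measured with 1 library per genotype. Per the labels' protocols, RNA was taken up in TRIzol and cDNA amplified by SMART-Seq II. The authors deposited FPKM values, reads divided by gene length and library size. The submitters' processing notes name Bowtie2 2.2.3, HTSeq 0.6.0 and mm10 with no roles. The sources used here give no strand, annotation release or pooling.

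Identifiers were joined to GENCODE M21 (GRCm38, the same assembly as mm10), which held 27222 of 27275. FPKM times summed exon length stepped in whole reads, within 0.01, for 90.7% (KO) and 90.6% (WT) of values above 0. This gave the depths and read numbers, which served for precision only. Folds are plain FPKM ratios, with exact Clopper-Pearson 95% intervals of the share of reads from the KO library. Reads from PCR, having no molecular identifiers, are not independent, so intervals and the floor of 3 reads cover counting error only. Log2 ratios and counts past a fold use a pseudocount of 1 FPKM and genes with at least 1 FPKM in at least 1 library. No p-value was computed. Steps were checked on simulated data.

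The genes and lists were chosen with earlier results of these data known. Named are the genes themselves and, of each list, the most abundant gene and at most 4 genes at either end past 1.5-fold. Others were named after their values were seen. Of the genes listed, Cyp24a1, Slc30a8, Hoxb13 and Hoxd13 were not analysed here. Alternatives were pseudocounts of 0.1 and 5, 4 scalings, no filter and a filter at 5 FPKM. Python 3.11.15, pandas 2.3.3 and scipy 1.17.1 were used.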

Additional observations from a re-analysis of the deposited data

How the results depend on the processing

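S100g was the one gene of the group past 2-fold under each alternative run, with log2 ratios from 1.69 to 2.16 over 6 alternatives, and 0 were 2-fold lower under any. Scaling to the summed enterocyte genes, in which Fabp2 and Apoa1 weigh most, was added after the data were seen. It gave a median over all compared genes of 0.12, against -0.05 as deposited, and the values below carry that shift. Under it the log2 ratio was 0.48 for Atp2b1, 0.33 for Vdr, 0.22 for Rxra and 0.32 for Slc30a10. List medians under it were 0.13 for receptor partners, 0.13 for claudins, 0.34 for SLC30 carriers, 0.11 for SLC39 carriers and 0.21 for stroma, and of the genes past 2-fold 49.2% were higher in the KO library, against 39.1% as deposited. Counts of all genes at least 2-fold higher and lower in the KO library were 217 and 338 as deposited, 355 and 575 at a pseudocount of 0.1, 61 and 122 at one of 5, and 97 and 193 among genes of at least 5 FPKM. The lymphocyte median was -0.84 as reported, and pseudocounts of 0.1 and 5 gave -1.34 and -0.39, since these genes have low values. No paired analysis was possible because there is 1 library per genotype. Depth limits Trpv6, with 3 and 4 reads, and no alternative addresses the spread between mice.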

Other observations

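Other genes of the S100 family, a set looked at after its values were seen, differed among themselves. Of the 13 S100 genes measured, 8 were compared, 4 were at least 1.5-fold higher in the KO library on the log2(FPKM + 1) scale, S100g among them, 0 were lower and 4 lay between. Over all compared genes, 3.56% were at least 1.5-fold higher. S100a1, a calcium-binding protein best known from muscle, had 39.1 FPKM from 479 reads in the KO library, against 20.2 FPKM from 244 reads in the WT library, 1.94-fold higher (1.66 to 2.27). Its neighbour on chromosome 3, S100a13, had 17.4 FPKM in the KO library and 10.4 FPKM in the WT library, and S100a6 had 43.8 FPKM in the KO library and 28.7 FPKM in the WT library. S100a11 went the other way, with 67.2 FPKM in the KO library and 83.4 FPKM in the WT library. The neutrophil genes S100a8 and S100a9 had 0 reads in the KO library, and 3 and 4 reads in the WT library.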
